A study of Mus musculus with 30 samples.

Results

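The handling of iron was followed through 9 genes in C2C12 myotubes, the multinucleated muscle cells that a mouse myoblast line forms in culture. They were Tfrc, Trf, Slc11a2, Fth1, Ftl1, Ncoa4, Slc40a1, Aco1 and Ireb2, chosen by name with earlier results of these data known. They were taken as a readout of the cell's iron supply when serum, which carries iron bound to transferrin, is taken away. Withdrawal removes the whole serum and not its iron alone. All 9 had a row among the 55487 genes counted. The myotubes were differentiated for 4 days in low glucose medium with 2% horse serum and then held for 4 further days, to 8 days in total, under 1 of 5 conditions with 6 libraries each. The 2% HS group stayed in 2% horse serum. The other groups had no serum and received nothing more (SD), 100 nM metformin (MET), 500 nM leucine (LEU) or both at these doses (MET+LEU). Every group was the same wild-type line, so the cells stand for 1 cultured line without liver, blood or macrophages around it. The labels do not say whether the 6 replicates were separate cultures, and the p-values therefore measure the spread between these libraries, which may be technical. No measurement of iron in the medium or the cells was analysed here.

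Most cells take up iron as transferrin bound to transferrin receptor 1, the product of Tfrc. The receptor is drawn into an endosome, and the iron released there enters the cytosol through the transporter DMT1, the product of Slc11a2. Iron that is not used is stored in ferritin, a shell of heavy (Fth1) and light (Ftl1) chains that Ncoa4 delivers to the lysosome when iron is needed, and it leaves the cell through the exporter ferroportin (Slc40a1). The iron regulatory proteins IRP1 (Aco1) and IRP2 (Ireb2) bind a hairpin called the iron-responsive element when iron is scarce. A hairpin before the coding sequence then holds back translation, and hairpins after the coding sequence of Tfrc protect the mRNA from decay. Counts of RNA show the level of an mRNA and not its translation.

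The hairpins were located in the mRNAs of the reference annotation (GRCm38), since they decide which of these transcripts the iron regulatory proteins can bind. The motif searched was an unpaired C, 5 stem bases, the loop CAGTGN and 5 stem bases, with at least 4 of the 5 stem positions paired (G with T allowed), on the sense strand only. Capitals mark the loop in the sequences below, which are written with T for U and include 5 bases on either side of the motif, 27 bases in all. The first 3 lie in 5′ UTRs, that of Slc11a2 and those of Tfrc in 3′ UTRs.
Fth1, chr19:9982733-9982759, + strand: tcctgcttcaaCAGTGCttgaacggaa
Ftl1, chr7:45459780-45459806, - strand: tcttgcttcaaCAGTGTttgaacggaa
Slc40a1, chr1:45925466-45925492, - strand: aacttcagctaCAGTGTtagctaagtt
Slc11a2, chr15:100395154-100395180, - strand: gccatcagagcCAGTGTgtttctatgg
Tfrc, chr16:32631220-32631246, + strand: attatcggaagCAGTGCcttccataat
Tfrc, chr16:32631599-32631625, + strand: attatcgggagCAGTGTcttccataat
Tfrc, chr16:32631664-32631690, + strand: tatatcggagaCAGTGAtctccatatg
Tfrc, chr16:32631711-32631737, + strand: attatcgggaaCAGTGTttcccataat

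The hairpins of the ferritin chains had 25 of 27 bases in common, whereas that of Slc40a1 had 13 of 27 in common with either. All 5 stem positions paired in each sequence except that of Slc11a2, where 4 did. The match of Fth1 was in 4 annotated transcripts and each of the others in 1. For Slc11a2 this transcript was not the first annotated mRNA, and counts per gene do not separate forms with and without a match. Trf, Ncoa4, Aco1 and Ireb2 had no match, with any match split across distant exons left out. The motif is loose, and 10.7% of 21901 protein-coding genes held at least 1 match anywhere in an mRNA, 0.954% in a 5′ UTR and 3.98% in a 3′ UTR, while 1.34% held a match with all 5 pairs. A match describes these letters and is not a measured binding site.

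**Figure D1:**
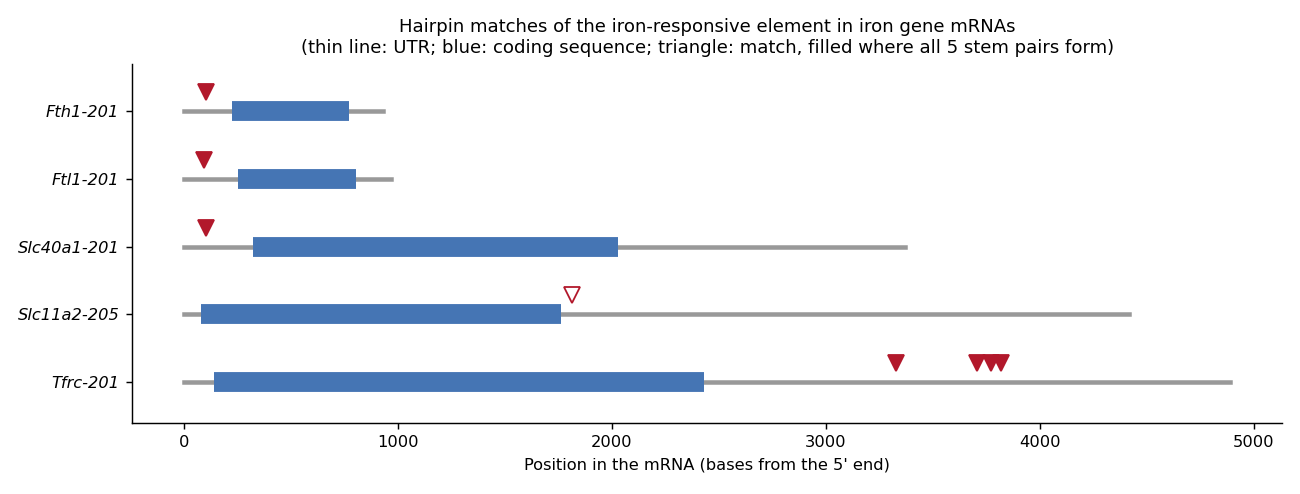
Positions of the hairpin matches along the mRNAs of Fth1, Ftl1, Slc40a1, Slc11a2 and Tfrc (horizontal axis: bases from the 5′ end), with UTRs as thin lines, coding sequences as blue bars and matches as triangles, filled where all 5 stem pairs form. The ferritin and Slc40a1 matches sit before the coding sequence, and the 4 Tfrc matches lie after it, between bases 3316 and 3833 of an mRNA of 4890 bases.

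Libraries held from 12784960 to 19604103 counts, scaled here by TMM (edgeR) to counts per 1000000 (CPM), and 15907 genes had enough counts for testing with edgeR's quasi-likelihood test. A gene was called where its Benjamini-Hochberg adjusted p over all these genes was under 0.05. MET+LEU replicate 6 stood apart, with 7.64% of its counts on mitochondrial and 5.85% on nuclear ribosomal RNA, where the other 29 libraries held at most 0.760% and 1.96%, and a TMM factor of 0.803 against 0.968 to 1.034. The groups also differed without it. Mitochondrial ribosomal RNA was 0.219% to 0.306% in 2% HS, 0.281% to 0.367% in SD and 0.244% to 0.705% in MET. It was 0.501% to 0.710% in LEU and 0.649% to 0.760% in the rest of MET+LEU. TMM factors were 1.009 to 1.021 in 2% HS and 0.968 to 0.985 in that rest. The part of these differences in the results was not tested. All 10 myotube markers were detected in every group. Their summed expression was 41373 to 44256 CPM in 2% HS and 33532 to 36048 CPM in SD, and in bulk RNA fewer cells of a type and less RNA per cell cannot be told apart. Markers of undifferentiated myoblasts summed to 590 to 661 CPM in 2% HS and 496 to 602 CPM in SD. Those of cycling cells summed to 340 to 381 CPM in 2% HS and 340 to 430 CPM in SD. In MET+LEU the sums were 274 to 313 CPM for cycling, 459 to 551 for myoblast and 32949 to 41814 for myotube markers. In MET+LEU vs. SD every cycling marker but Pcna was called lower. Myh1, Myh3, Myh4 and Tnnt3 rose, Atp2a1 fell, and no other myotube or myoblast marker was called. The part of these shifts in the MET+LEU results was not tested. Markers of macrophages, cells rich in ferroportin, summed to 3.46 to 4.49 CPM in 2% HS and 4.85 to 6.51 CPM in SD. Those of hepatocytes summed to at most 0.268 CPM in any library and those of erythroid cells to at most 0.0810 CPM.

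Serum withdrawal was followed by a loss of the exporter mRNA and a small gain of the receptor mRNA, while the mRNAs of both ferritin chains, the endosomal transporter, the ferritin receptor and both regulators were not called. In SD vs. 2% HS, 2 of the 8 members tested passed the threshold, 1 higher (Tfrc) and 1 lower (Slc40a1), a share near that of all tested genes, of which 27.8% passed. Slc40a1 (ENSMUSG00000025993, chr1:45908068-45926523, - strand) encodes ferroportin, the protein through which iron leaves the cell. Its expression ran from 43.9 CPM at the lowest through a median of 46.1 to 48.7 at the highest in 2% HS, and from 15.7 through 17.5 to 22.1 in SD. Every SD library lay below every 2% HS library. The mean went from 46.2 ± 1.72 to 18.2 ± 2.30 CPM (mean ± standard deviation, n = 6 in either group), which on the log2 scale was a change of -1.35 with a standard error of 0.07 and a 95% interval of -1.49 to -1.21 (adjusted p = 3.6e-21, edgeR). Of 2213 genes that fell in this comparison, 60 fell by more than Slc40a1 (2.71%), and the median absolute log2 fold change of all changed genes was 0.31. The call was kept in all 21 alternative settings, with values from -1.41 to -1.31. In the same comparison 5 of the 10 myotube markers fell (Myh1, Myh4, Ckm, Ttn and Atp2a1), Des rose by 0.13 (adjusted p = 0.00650, edgeR) and 4 were not called, and Ttn alone made up 30972 CPM of their mean sum in 2% HS. Of the 6 macrophage markers, Adgre1 was at 0 in every library of both groups, Ptprc and Lyz2 had at most 2 counts and Csf1r at most 8. Cd68, at 26 to 58 counts, was not called, and Cd14 rose by 0.87 (adjusted p = 0.00184, edgeR). Among the myoblast markers Pax7 fell by 0.37 and Myod1 by 0.28, Id1 rose by 0.33, and Myf5, Msc and Id3 were not called. Among the cycling markers Mcm2, Mcm3, Mcm5 and Pcna rose, and Mki67, Top2a, Ccnb1, Cdk1, Ccna2 and Rrm2 were not called. The part of any of these marker lists in the result was not tested.

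The low level of Slc40a1 was shared by all groups without serum. It ran from 15.9 through a median of 16.8 to 21.5 CPM in MET, from 15.6 to 18.7 in LEU (mean 17.5 ± 1.29) and up to 22.5 with a median of 18.5 in MET+LEU (mean 19.4 ± 1.75). None of these ranges reached the lowest 2% HS library, and they overlapped with one another and with SD. Against 2% HS, a group common to these comparisons, Slc40a1 fell by 1.40 on the log2 scale in MET (adjusted p = 8.3e-22), by 1.40 in LEU (7.8e-22) and by 1.25 in MET+LEU (4.2e-20). Against SD, the log2 fold changes were -0.05 in MET (95% interval -0.20 to 0.10, adjusted p = 0.895), -0.05 in LEU (-0.20 to 0.09, 0.876) and 0.10 in MET+LEU (-0.05 to 0.25, 0.372), none of them called. The highest bound of these 3 intervals was 0.25, beside the loss of 1.35 in SD.

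**Figure D2:**
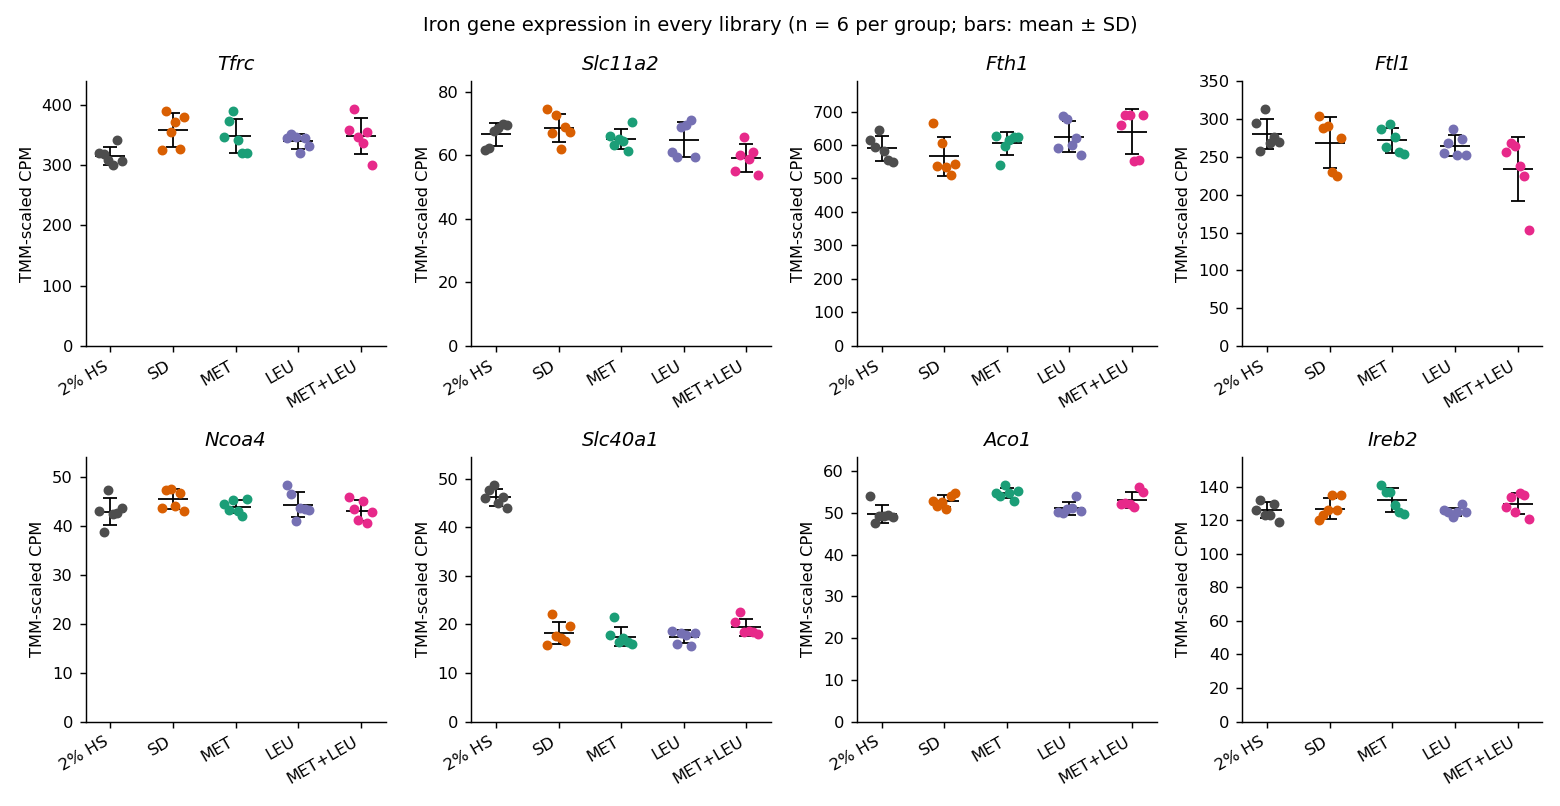
Expression of the 8 tested iron genes in every library (vertical axis: TMM-scaled CPM, from 0), by group along the horizontal axis, with 1 point for each library and bars for the mean ± SD of 6. Slc40a1 lies between 43.9 and 48.7 CPM in 2% HS and between 15.6 and 22.5 CPM in the groups without serum, whereas the ranges of 2% HS and SD overlap for each of the other 7 genes.

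Among the uptake genes, Tfrc (ENSMUSG00000022797, chr16:32608920-32632794, + strand), the receptor for iron-loaded transferrin, rose in SD by a small amount. Its expression ran from 299 through a median of 313 to 342 CPM in 2% HS and from 324 through 362 to 390 in SD. The groups overlapped, with the lowest SD library below the highest in 2% HS. The mean rose from 315 ± 14.8 to 358 ± 27.7 CPM, or by 13.3% (log2 fold change 0.18 with a standard error of 0.05, edgeR adjusted p = 0.00848). Of 2211 genes that rose, 76.6% rose by more. All 21 alternatives kept this call, with adjusted p from 5.0e-05 to 0.0295. With the agents, means were 348 ± 28.4 CPM (MET), 339 ± 11.9 (LEU) and 348 ± 30.3 (MET+LEU). Relative to 2% HS, Tfrc rose by 0.14 in MET (adjusted p = 0.0326) and by 0.14 in MET+LEU (0.0284), and its log2 fold change in LEU was 0.11 (0.132). The MET+LEU call against 2% HS was lost in 9 of 20 alternatives, namely upper-quartile normalization and the fits without 2% HS replicate 1, 2, 3, 4 or 6 or MET+LEU replicate 1, 2 or 5, where adjusted p ranged from 0.0533 to 0.135 and the value from 0.10 to 0.14. None of the treated groups was called against SD.

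Slc11a2 (ENSMUSG00000023030, chr15:100387898-100425072, - strand) encodes DMT1, which moves iron out of the endosome. Expression ran from 61.7 through a median of 68.1 to 69.8 CPM in 2% HS, from 61.9 through 68.2 to 74.4 in SD and from 53.9 through 59.3 to 65.7 in MET+LEU. The groups 2% HS and SD covered much the same range, and MET+LEU lay lower while still overlapping with both. It was not called in SD vs. 2% HS (log2 fold change 0.04, 95% interval -0.06 to 0.15, adjusted p = 0.566). In MET+LEU it fell to 0.860 of its level in SD (log2 fold change -0.22 with a standard error of 0.05, adjusted p = 0.00212) and to 0.887 of that in 2% HS (-0.17, adjusted p = 0.00584). All 20 alternatives kept both calls, with adjusted p up to 0.0231 and 0.0171. With either agent alone the means were 65.1 ± 3.13 CPM in MET and 64.9 ± 5.42 in LEU, and the log2 fold changes vs. SD were -0.08 in each (adjusted p = 0.648 and 0.637). The interaction of MET and LEU, which tests whether the combination differs from the sum of both agents on the log2 scale, was -0.06 (95% interval -0.20 to 0.09, adjusted p = 0.878).

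Trf, the gene of transferrin itself (ENSMUSG00000032554, chr9:103204001-103230444, - strand), was at 0 counts in 27 of 30 libraries, among them all those in 2% HS, SD and MET. The other 3 libraries held 4 counts in all, at most 1 in a LEU library and 2 in MET+LEU replicate 6. A count of 0 allows up to 3 counts, which is 0.152 to 0.243 CPM in these libraries, and every library was at or below that limit. Trf was therefore not tested. These limits from counts cover counting error only.

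The storage genes were not called after serum withdrawal. Fth1 (ENSMUSG00000024661, chr19:9980598-9985098, + strand), the chain that oxidises iron as it enters ferritin, ran from 550 through a median of 587 to 646 CPM in 2% HS, from 510 through 541 to 666 in SD and from 553 through 675 to 691 in MET+LEU. The ranges overlapped in every pair of these groups. Its log2 fold change was -0.06 in SD vs. 2% HS (95% interval -0.19 to 0.08, adjusted p = 0.558), and MET+LEU vs. SD gave 0.17 (0.04 to 0.31, adjusted p = 0.0656). The second value passed in 7 of 20 alternatives, namely with DESeq2, limma-voom, the replicate block and the fit without the robust option and without SD replicate 1 or MET+LEU replicate 4 or 5, and adjusted p ranged from 0.0164 to 0.186 over the 20.

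Ftl1 (ENSMUSG00000050708, chr7:45457944-45459884, - strand), the light chain, ran from 258 through a median of 274 to 313 CPM in 2% HS, from 225 through 282 to 304 in SD and from 154 through 247 to 269 in MET+LEU. The 3 ranges overlapped, and the lowest value of 154 CPM belonged to MET+LEU replicate 6, the library rich in ribosomal RNA. Its log2 fold change was -0.06 in SD vs. 2% HS (95% interval -0.26 to 0.14, adjusted p = 0.703), and MET+LEU vs. SD gave -0.20 (-0.40 to 0.00, adjusted p = 0.160). In MET+LEU vs. 2% HS it fell by 0.26 (adjusted p = 0.0334). Without MET+LEU replicate 6 that value was -0.17 and was not called (adjusted p = 0.0540), and the call was also lost without 2% HS replicate 1 (0.0528) or 3 (0.0672), without a filter on low counts (0.0745) and with only the groups compared (0.113). Ferritin genes have pseudogenes and related coding copies in the genome, and reads could be divided between them. Among 14 genes named as such, Fth-ps2 held a median of 17 counts and Ftl1-ps1 a median of 20, against at least 6628 for Fth1 and 1896 for Ftl1, and no other exceeded 2. Gm10252, annotated on the opposite strand within Ftl1, held a median of 9 counts.

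Ncoa4 (ENSMUSG00000056234, chr14:32159865-32179855, + strand), which carries ferritin to the lysosome for breakdown, was not called in any of the 10 comparisons. Its means were between 42.9 ± 2.72 CPM in 2% HS and 45.4 ± 2.02 in SD, and the log2 fold change in SD vs. 2% HS was 0.08 (95% interval -0.02 to 0.17, adjusted p = 0.216). All 5 ranges overlapped, from 38.8 to 48.3 CPM over the 30 libraries.

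**Figure D3:**
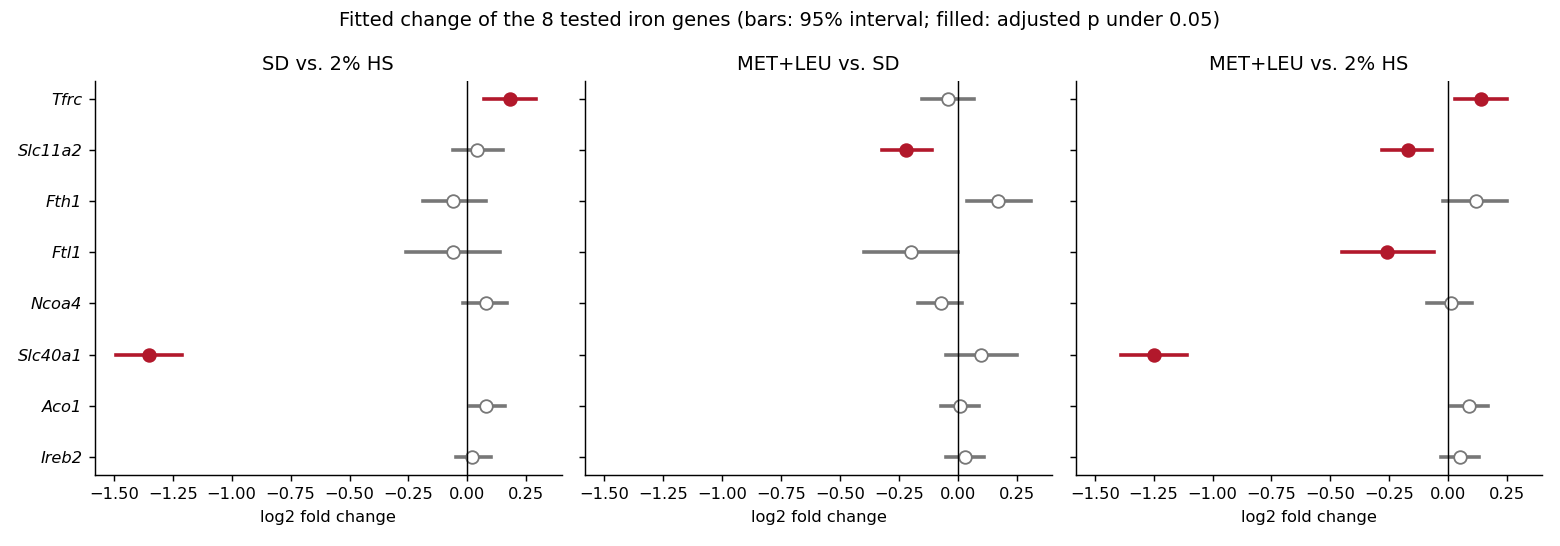
Log2 fold changes of the 8 tested members (horizontal axis) for SD vs. 2% HS, for MET+LEU vs. SD and for MET+LEU vs. 2% HS, with points for the fitted value and lines for its 95% interval, filled where the adjusted p was under 0.05. Slc40a1 stands at -1.35 and -1.25 in the comparisons with 2% HS and at 0.10 in MET+LEU vs. SD, and every other member stays between -0.26 and 0.18.

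The regulators moved little. Aco1 (ENSMUSG00000028405, chr4:40143081-40198338, + strand) encodes IRP1, which works as an aconitase when it holds an iron-sulfur cluster and as an RNA-binding protein without it. Expression ran from 47.7 through a median of 49.3 to 54.1 CPM in 2% HS, from 51.0 through 52.8 to 54.7 in SD and from 53.0 through 54.8 to 56.7 in MET. The highest 2% HS library reached into both other ranges. Aco1 rose in MET vs. 2% HS by 0.14 (standard error 0.04, adjusted p = 0.00512), and its log2 fold change was 0.08 in SD vs. 2% HS (adjusted p = 0.107), 0.09 in MET+LEU vs. 2% HS (0.0545) and 0.04 in LEU vs. 2% HS (0.537). Without 2% HS replicate 1, the library at 54.1 CPM, the value for SD was 0.11 and passed (0.0417), as did that for MET+LEU at 0.11 (0.0280). The MET+LEU value also passed in the fit without the robust option (0.0381). Ireb2 (ENSMUSG00000032293, chr9:54863789-54912530, + strand), whose product IRP2 is degraded when iron is plentiful, was called in none of the 10 comparisons. Its means lay between 125 ± 2.55 CPM in LEU and 132 ± 7.14 in MET, and the log2 fold change in SD vs. 2% HS was 0.02 (95% interval -0.05 to 0.10, adjusted p = 0.714).

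In the other comparisons the share of the 8 members that passed lay both above and below that of all genes. The groups of these comparisons are shared, with SD the control in 3 and 2% HS in 4, so the counts are not independent of one another. In MET+LEU vs. 2% HS, 4 of 8 members passed, 1 higher and 3 lower, where 42.3% of all genes did. In MET vs. 2% HS, 3 of 8 passed, with Tfrc and Aco1 higher and Slc40a1 lower, where 35.0% did, and in LEU vs. 2% HS only Slc40a1, where 29.7% did. In MET+LEU vs. SD only Slc11a2 passed, where 18.4% did. No member passed in MET vs. SD (0.157% of all genes), LEU vs. SD (0.553%), MET+LEU vs. MET (8.69%), MET+LEU vs. LEU (6.28%) or the interaction of MET and LEU (0.0503%) by edgeR, DESeq2 or limma-voom. At an unadjusted p under 0.05 edgeR gave 0, 1, 2, 2 and 0 members in these 5 comparisons. Of all 15907 genes tested, 1597, 1588, 3588, 3425 and 1389 passed that same unadjusted cutoff. The median log2 fold change of the 8 members was 0.03 in SD vs. 2% HS, and for MET+LEU vs. SD it was -0.02, beside 0.003 and -0.005 over all genes.

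Levels of different genes were compared per length, as transcripts per 1000000 (TPM) over the merged exons of each gene. In 2% HS the order was Ftl1 (709 ± 55.3 TPM), Fth1 (576 ± 41.6), Tfrc (173 ± 5.27), Ireb2 (44.8 ± 1.31), Aco1 (37.6 ± 1.66), Slc11a2 (35.5 ± 2.10), Slc40a1 (17.4 ± 0.755) and Ncoa4 (15.5 ± 1.15), with Trf at 0 (n = 6). Aco1 and Slc11a2 overlapped, as did Slc40a1 and Ncoa4, and the other neighbours did not. In SD the level of Slc40a1 was 6.66 ± 0.995 TPM, from 5.28 to 8.23, below Ncoa4 at 14.1 to 17.2 with no overlap. The order rests in part on the length used. The merged exons of Fth1 span 3469 bases and its first mRNA 929, against 1340 and 968 for Ftl1, and per kilobase of that mRNA the TMM-scaled level in 2% HS was 635 ± 39.3 CPM for Fth1 and 290 ± 20.7 for Ftl1. On that scale the mean of Slc11a2 was within 1 standard deviation of that of Ireb2 (21.8 ± 0.843 CPM), and the mean of Slc40a1 (13.7 ± 0.509 CPM) lay above those of Aco1 and Ncoa4. This length was chosen after seeing the data.

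Ratios within a library do not depend on how libraries are scaled. The log2 ratio of Fth1 to Ftl1 counts was 1.07 ± 0.07 in 2% HS and 1.08 ± 0.12 in SD. MET gave 1.15 ± 0.12, LEU 1.24 ± 0.07 and MET+LEU 1.46 ± 0.35. The MET+LEU libraries ran from 1.21 to 2.17, the last being replicate 6, and without it their mean was 1.32 ± 0.07 (n = 5). The 5 remaining MET+LEU libraries ranged from 1.21 to 1.38, against 0.90 to 1.22 in SD and 1.18 to 1.36 in LEU. The log2 ratio of Tfrc to Fth1, receptor over store, was -0.90 ± 0.13 in 2% HS and -0.66 ± 0.22 in SD, with ranges of -1.07 to -0.70 and -1.04 to -0.46 that overlapped. MET gave -0.80 ± 0.18, LEU -0.88 ± 0.08 and MET+LEU -0.88 ± 0.20. These ratios are descriptions and were not tested.

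**Figure D4:**
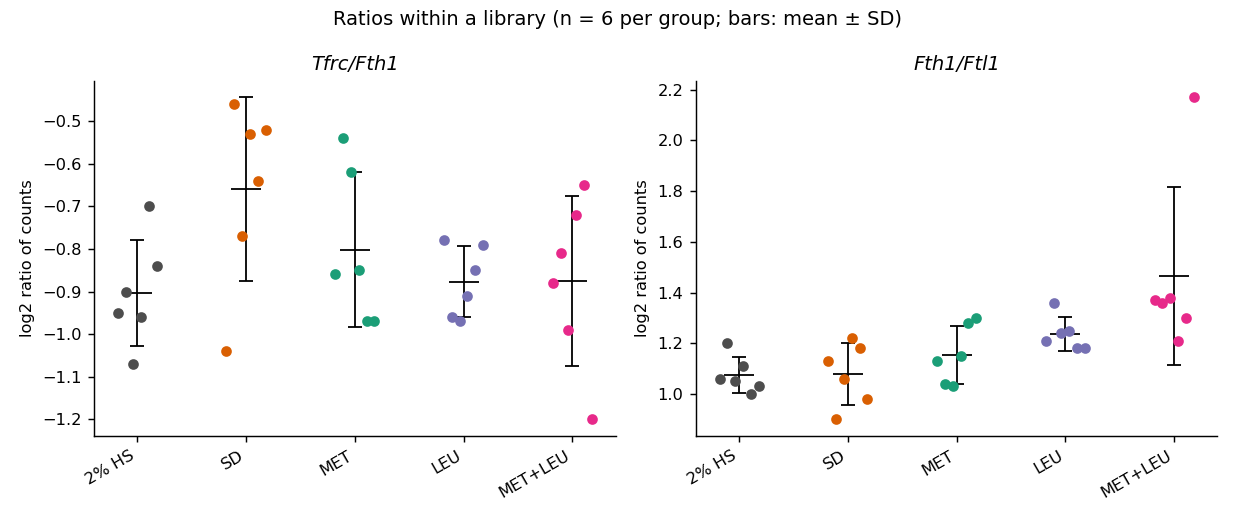
Log2 ratios of raw counts within each library (vertical axes) by group, for Tfrc over Fth1 on the left and Fth1 over Ftl1 on the right, with 1 point for each library and bars for the mean ± SD of 6. MET+LEU replicate 6 lies at 2.17 for Fth1 over Ftl1, away from the other 5 MET+LEU libraries at 1.21 to 1.38.

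Other genes of iron metabolism were read from a list of 90, of which 79 had enough counts for testing. In SD vs. 2% HS, 21 of the 79 passed, 10 higher and 11 lower, or 26.6% where 27.8% of all genes passed. The 2 largest changes, those of Cp and Bmp6, were among genes of iron export and of the hepcidin pathway, the hormone axis that controls ferroportin. In that role 5 of the 10 listed genes were tested and all 5 fell. Cp, which encodes ceruloplasmin, the copper enzyme that oxidises iron as ferroportin releases it, ran from 131 through a median of 137 to 159 CPM in 2% HS and from 65.8 through 75.0 to 77.5 in SD. All SD libraries lay below all 2% HS libraries, and Cp fell by 0.93 on the log2 scale (standard error 0.07, adjusted p = 9.4e-13). Bmp6, the ligand that raises hepcidin production in the liver, was at 48.9 to 53.6 CPM in 2% HS and 23.7 to 33.9 in SD without overlap, a change of -0.89 (adjusted p = 2.1e-15). Hephl1, a ferroxidase related to ceruloplasmin, fell by 0.27 with overlapping groups (adjusted p = 2.0e-04), and Hjv and Neo1, co-receptors of this pathway named after their values were seen, fell by 0.21 each. Hamp, the gene of hepcidin, held at most 2 counts in a library and was not tested.

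The remaining roles held fewer or smaller changes in SD vs. 2% HS. Their counts stand beside the 27.8% of all tested genes that passed, and no role was tested as a set. Of 6 tested genes of transferrin uptake, 1 was called, Steap3, the endosomal reductase that makes iron ready for DMT1, which fell from 32.7 ± 2.26 to 25.1 ± 1.93 CPM without overlap (log2 fold change -0.38, adjusted p = 9.2e-06). Tfr2, the second transferrin receptor, was at 2.20 ± 0.375 and 2.41 ± 0.509 CPM (adjusted p = 0.668). Of 4 genes of uptake without transferrin, 2 rose, Slc39a14, the transporter ZIP14, by 0.16 (70.6 ± 1.62 to 78.9 ± 4.81 CPM, adjusted p = 0.00539) and Lrp1, named after its value was seen, by 0.18. Of 6 genes for iron chaperones and mitochondrial import, 3 rose, led by Bola2 at 0.27 (adjusted p = 0.0207). Of 5 genes that regulate the iron regulatory proteins or the Tfrc mRNA, 1 rose, Herc2, named after its value was seen, by 0.12. Fbxl5, the ligase that marks IRP2 for breakdown in iron-rich cells, was not called (-0.07, adjusted p = 0.218).

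Iron-sulfur cluster assembly had 29 tested genes, of which 2 rose and 3 fell, where 13.9% of all tested genes rose and 13.9% fell. Hscb, a co-chaperone that hands on new clusters, fell by 0.46 (adjusted p = 0.0480) at only 31 to 84 counts in the libraries compared, and Iba57, a mitochondrial assembly factor, rose by 0.39 (adjusted p = 0.0106). None of 10 tested genes of heme synthesis was called in SD vs. 2% HS, and Alas1, its first enzyme, was at 56.2 ± 4.78 CPM in 2% HS and 56.2 ± 4.47 in SD (adjusted p = 0.956). Of 10 genes of heme breakdown and transport, 2 rose and 1 fell. Hmox1, the heme oxygenase that frees iron from heme, fell from 37.4 ± 1.70 to 31.8 ± 1.77 CPM without overlap (-0.24, adjusted p = 5.0e-04), and the heme-binding protein Pgrmc1 rose by 0.30 (adjusted p = 3.9e-05). Of 4 other mRNAs known for an iron-responsive element, Cdc42bpa, named after its value was seen, fell by 0.27.

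**Figure D5:**
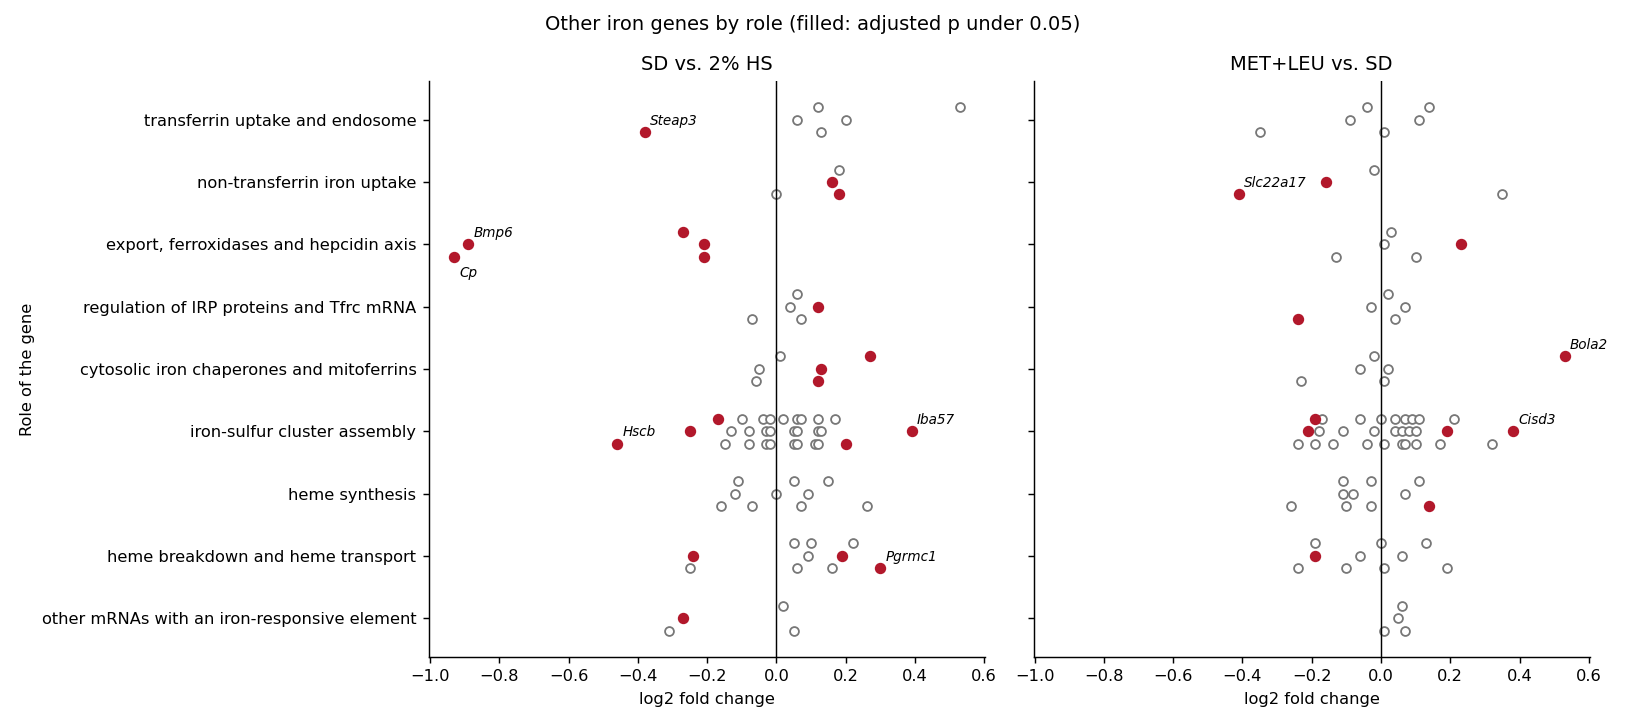
Log2 fold changes (horizontal axis) of the 79 other iron genes tested, in rows by role, for SD vs. 2% HS and for MET+LEU vs. SD, with filled points where the adjusted p was under 0.05. In SD vs. 2% HS Cp and Bmp6 lie apart at -0.93 and -0.89, and in MET+LEU vs. SD the called values run from -0.41 (Slc22a17) to 0.53 (Bola2).

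In MET+LEU vs. SD, 11 of the 79 other iron genes passed, 5 higher and 6 lower, or 13.9% where 18.4% of all genes passed. The count was 6 with limma-voom and 4 with only the groups compared. Over all genes the calls were also fewer in these settings, 1857 and 1422 against 2931. Bola2, whose product works with a glutaredoxin in iron-sulfur trafficking, rose from 13.5 ± 1.45 to 19.7 ± 3.24 CPM without overlap (0.53 on the log2 scale with a standard error of 0.09, adjusted p = 2.2e-05). Cisd3, an iron-sulfur protein of mitochondria, rose by 0.38 (adjusted p = 4.7e-04) and Ciao2a, a factor of cytosolic iron-sulfur assembly, by 0.19 (0.0266). Cp rose by 0.23 (adjusted p = 0.0198), with MET+LEU at 79.1 to 94.4 CPM, above all SD libraries and below all in 2% HS. Slc22a17, a receptor for iron-binding lipocalin, fell by 0.41 (adjusted p = 0.00243), Zc3h12a, an RNase reported to act on the Tfrc mRNA, by 0.24 (0.0292), Nubp2, a scaffold of cytosolic iron-sulfur assembly, by 0.21 (0.0293) and Hmox1 by 0.19 (0.0111). Slc39a14 fell by 0.16 (0.0119) to 70.8 ± 3.95 CPM, beside 70.6 ± 1.62 in 2% HS. Steap3 (0.11, adjusted p = 0.245), Tfr2 (-0.09, 0.784), Alas1 (-0.03, 0.743) and Fbxl5 (0.02, 0.764) were not called. In MET vs. SD and LEU vs. SD none of the 79 passed by edgeR or limma-voom. By edgeR 6 and 7 of them had an unadjusted p under 0.05, beside 1597 and 1588 of all 15907 genes tested. DESeq2 called 1 of the 79 in each, beside 120 and 168 over all genes. In MET+LEU vs. 2% HS 35 passed (18 higher and 17 lower, 44.3%), where 42.3% of all genes did.

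Genes whose log2 CPM followed a member most closely over the 30 libraries were sought for Slc40a1, Ftl1 and Slc11a2, whose group means spanned the widest ranges (1.40, 0.28 and 0.22 on the log2 scale). For Slc40a1 they were Amotl1, Ssh2 and Tenm4 (Pearson's r = 0.97, 0.96 and 0.96). Over the 24 libraries without serum the values were 0.36, 0.44 and 0.53, lower than over all 30. For Ftl1 they were Vasp, Cyc1 and Atp5g2 (0.93 each), and without MET+LEU replicate 6 the values were 0.86, 0.82 and 0.86. For Slc11a2 they were Mfsd2a, Srebf1 and Syngr2 (0.85, 0.84 and 0.82), with 0.87, 0.86 and 0.82 over the 24 libraries. The points share the same 5 groups, depth and scaling, and these correlations are descriptions with no test. Between members, the highest within-group correlation of log2 CPM was that of Tfrc and Ireb2 (r = 0.620 after removing group means), followed by Tfrc and Slc40a1 (0.577). Fth1 and Ftl1, the chains of 1 particle, had r = 0.293. MET+LEU replicate 6 held the lowest Tfrc (300 CPM) and Ireb2 (121 CPM) of its group, and no value without that library was computed for these pairs.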

How the data were processed

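Total RNA of C2C12 myotubes was depleted of ribosomal RNA and made into stranded libraries by the authors, who deposited raw counts of reads per gene, whole numbers without normalization, for 30 libraries. The submitters' processing notes name cutadapt 1.16, STAR 2.7.6a, featureCounts 1.6.3, DESeq2 1.30.1 and the build GRCm38. The annotation release, the strand setting and the treatment of reads with several matches are not given in the sources used here. Of 55487 identifiers, 55227 matched GENCODE M21 and the other 260 held 0.00434% of counts, and symbols, coordinates, lengths and hairpin sequences come from that annotation and GRCm38.

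Groups were taken from the sample titles. In R 4.3.3, genes were kept by filterByExpr (minimum count 10, minimum total 15) and 1 model of all 5 groups was fitted to the 30 libraries with edgeR 4.0.16 (TMM, glmQLFit, robust, quasi-likelihood F test) for 10 comparisons, with p adjusted over all genes tested (Benjamini-Hochberg). Standard errors are the absolute log2 fold change divided by the square root of F, and intervals are at 95%. Log2 CPM used a prior count of 2. The members and lists were chosen with earlier results of these data known. Besides the members, the genes named are the up to 8 other iron genes past the threshold with the largest changes (average log2 CPM 0 or more) for each of SD vs. 2% HS and MET+LEU vs. SD, and Tfr2, Hmox1, Alas1, Fbxl5, Steap3, Slc39a14, Cp and Hamp, and others are marked as named later. Alternatives were DESeq2 size factors, upper-quartile normalization, DESeq2 1.42.0, limma-voom (limma 3.58.1) with sample weights, no filter, only the groups compared, the replicate block, a fit without the robust option and leaving out each library. No 2 libraries agreed within sampling noise (chi-square per degree of freedom at least 2.33 within groups).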

Additional observations from a re-analysis of the deposited data

Results flagged for a closer look

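In each group of 6 libraries, the gap of the highest and of the lowest value of a member or a named iron gene to the nearest library was divided by the group's range and set against Dixon's 95% limit. Of 130 groups examined, 6 passed, and chance alone flags about 1 in 20. Fth1 was at 540 CPM in MET replicate 2, where the other MET libraries held 598 to 628, and the same library held the highest Slc40a1 of its group, 21.5 CPM against 15.9 to 17.8. Aco1 was at 54.1 CPM in 2% HS replicate 1 (others 47.7 to 49.6) and at 54.1 CPM in LEU replicate 5 (others 49.9 to 51.2). Cp was at 65.8 CPM in SD replicate 6 (others 74.0 to 77.5). Bola2 was at 26 CPM in MET+LEU replicate 6 (others 17.1 to 19.2), the library with the most ribosomal RNA.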

How the results depend on the processing

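Slc40a1 in SD and MET+LEU vs. 2% HS, Tfrc in SD vs. 2% HS and Slc11a2 in MET+LEU vs. SD and vs. 2% HS kept their call in every alternative run. For MET+LEU vs. SD, 2 members passed with DESeq2, limma-voom, the replicate block and the fit without the robust option, and 1 to 2 when 1 library was left out (2 without SD replicate 1 or MET+LEU replicate 4 or 5). In LEU vs. 2% HS, 2 passed with limma-voom, without a filter and with only the groups compared. MET+LEU vs. MET had 1 member past the threshold with upper-quartile normalization and without a filter, and 0 to 1 with 1 library left out (1 without MET replicate 5 or MET+LEU replicate 3). MET+LEU vs. LEU gave 0 to 1 (1 without MET+LEU replicate 3), and MET+LEU vs. 2% HS 2 to 4 (2 without 2% HS replicate 3). Of the other iron genes, DESeq2 called 1 in each of MET vs. SD and LEU vs. SD, leaving out 1 library gave 0 to 1 in LEU vs. SD (1 without MET+LEU replicate 6), and in MET+LEU vs. SD limma-voom called 6 and only the groups compared 4. Over all genes, these fits called 120 and 168 (DESeq2), 269 (without MET+LEU replicate 6), 1857 (limma-voom) and 1422 (only the groups compared). The causes were not tested.

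Values near 0 that were never called changed sign. Aco1 in MET+LEU vs. SD was -0.01 with upper-quartile normalization and -0.0001 with limma-voom, Ncoa4 in MET+LEU vs. 2% HS was -0.02 with upper-quartile normalization, and Ftl1 in LEU vs. SD was 0.01 with limma-voom. With 1 library left out, Ftl1 ran from -0.03 to 0.05 in MET vs. SD and for LEU vs. SD from -0.07 to 0.02, Slc40a1 from -0.11 to 0.02 and from -0.09 to 0.01 respectively, Aco1 from -0.02 to 0.01 in MET+LEU vs. SD and Ncoa4 from -0.03 to 0.03 in MET+LEU vs. 2% HS. Per merged exon length the log2 ratio of Fth1 to Ftl1 levels in 2% HS was -0.30, and per mRNA length, an alternative chosen after seeing the data, 1.13. Replicate numbers were not taken to pair the samples. Deviations from the group means correlated at 0.0157 on average between same-numbered libraries of separate groups (60 pairs, 2 over 0.1). Between libraries of separate groups with other numbers the average was -0.00314 (300 pairs, 11 over 0.1). By contrast, 11 of 30 correlated best with their own number, where 1 in 6 would by number alone, a hint of pairing from the data and not from the design. In the 5 comparisons with SD or of MET+LEU with 2% HS, the replicate block changed no call of a member besides that of Fth1 in MET+LEU vs. SD, which passed with it (log2 fold change 0.18). Trf had too few counts to be tested at this depth.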
